A study of Mus musculus with 29 samples.

Results

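Glycolysis splits glucose into pyruvate in the cytosol, and lactate dehydrogenase then turns pyruvate into lactate. Hif1a encodes the oxygen-regulated subunit of the transcription factor HIF-1, which binds hypoxia response elements and raises transcription of many glycolytic genes. Microglia, the resident macrophages of the brain, use both glycolysis and mitochondrial respiration, and activated macrophages are known for a high glycolytic rate. The 10 genes described here are Hif1a and 9 genes of the pathway: Hk2, Gpi1, Pfkl, Aldoa, Tpi1, Pgk1, Pgam1, Pkm and Ldha. They were taken by symbol from a count table of 22327 genes, and all 10 were found and passed the filter on low counts, which kept 16074 genes.

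The libraries came from translating ribosome affinity purification (TRAP) of mouse cortex, in which a ribosomal protein tagged with green fluorescent protein is pulled down together with the RNA it is translating. The study set microglial tag expression beside 5xFAD, a mouse model of amyloid deposition, and beside alleles that act on the integrated stress response, a program that limits protein synthesis through phosphorylation of the translation factor eIF2 alpha. By the labels, each of the 29 libraries carried Cx3cr1CreErt2/+, a tamoxifen-inducible Cre expressed from Cx3cr1, a gene of microglia and other brain macrophages. Each came from a mouse of 6 months that had received 6 doses of 100 mg/kg tamoxifen. The labels do not say whether the libraries of a group came from separate mice, so that p-values measure the spread between these libraries.

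TRAP (n = 5) carried Eef1a1LSL.eGFPL10a/+, the plain tag, and received tamoxifen alone. 5xFAD TRAP (n = 4) carried the same tag with 5xFAD and also received VEGF (1 µg/kg) with ASV (5 mg/kg) over 4 weeks. Eif2A (n = 4) and 5xFAD Eif2A (n = 3) received tamoxifen alone. Both carried Eif2s1A/A with the Tg(Eif2s1) transgene and, by the sample labels, the plain tag, which the series text leaves out of these genotypes. The 3 other groups carried Eef1a1LSL.NS3.eGFPL10a.iPKR/+, a tagged construct that encodes an inducible form of the eIF2 alpha kinase PKR. Of these, iPKR vehicle (n = 4) received VEGF with the solvent, iPKR ASV (n = 5) received VEGF with ASV, and 5xFAD iPKR (n = 4) added 5xFAD to the iPKR ASV treatment. On the plain tag, 5xFAD and the VEGF and ASV treatment therefore cannot be told apart, whereas neither Eif2A group received VEGF or ASV and both iPKR groups of the 5xFAD comparison received both.

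Total counts ran from 1.66 M to 32.0 M per library, with a median of 6.05 M. By reads of Y-linked genes, 8 of the 29 libraries went against their labelled sex: Eif2A 3 and 4, iPKR ASV 1, 3, 4 and 5, and 5xFAD iPKR 1 and 2. Reads of Cx3cr1, the gene that carries the Cre by the labels, were uneven within groups. The lowest TRAP library held 17.0 CPM (counts scaled to library size) from 170 reads, against a TRAP median of 662. The lowest iPKR vehicle library held 0 reads of Cx3cr1. The cause of these low values was not tested. The 12 defining microglia markers measured made up 2.45 to 3.61% of counts in the 16 libraries without the iPKR construct, and 0.061 to 1.18% in the 13 libraries with it. The 12 neuron markers measured, none of them at 0 in any group, ran from 0.078 to 0.439% in the first set and from 0.586 to 3.66% in the second. The label of microglia thus held by markers in the 16 libraries and was weak in the other 13. Among the latter, iPKR ASV 3 (2.33%), 5xFAD iPKR 1 (3.21%) and 5xFAD iPKR 2 (3.66%) held the highest neuron shares. Bulk pulldowns do not separate fewer cells of a type from less RNA per cell.

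HIF-1 binds a short core within hypoxia response elements, and the promoters of the 10 genes were searched for its letters, ACGTG or GCGTG, on both strands of the 250 bases before each RefSeq start (GRCm38.p6). The 10 genes have 14 such windows, some genes having several starts. ACGTG was present in 8 of the 14 windows (7 genes) and in 16.6% of 32851 promoters, GCGTG in 3 windows (3 genes) and in 28.2% of promoters, and either core in 10 windows (8 genes) and in 38.6% of promoters. Windows 2 and 3 of Aldoa overlap and share the same ACGTG match, which is counted in both. No match was found for Tpi1 or Gpi1 in this window. The 4 stretches of 60 bases below come from members whose levels are set out in the following paragraphs, with the matched letters, overlapping CACGTG copies included, in capitals. They lie at chr6:82774474-82774533 (minus strand, Hk2), chrX:106186932-106186991 (plus strand, Pgk1), chr19:41911743-41911802 (plus strand, Pgam1) and chr7:46845734-46845793 (plus strand, Ldha), each upstream of a RefSeq start. A match describes letters only.
Hk2: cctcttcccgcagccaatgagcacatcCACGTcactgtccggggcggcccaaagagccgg
Pgk1: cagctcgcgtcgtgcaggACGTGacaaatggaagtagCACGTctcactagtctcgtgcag
Pgam1: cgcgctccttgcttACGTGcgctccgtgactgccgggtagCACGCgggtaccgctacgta
Ldha: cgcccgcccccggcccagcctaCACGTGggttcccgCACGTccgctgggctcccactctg

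Levels are given as CPM, counts scaled to library size with TMM factors. Divided by exon length in kb (GENCODE vM21), the TRAP libraries held Aldoa at 199 ± 40.2 CPM per kb (SD, n = 5), followed by Pkm at 116 ± 21.5, Ldha at 98.7 ± 16.3 and Tpi1 at 97.9 ± 20.3. Pgk1 (32.4 ± 6.79), Pgam1 (29.3 ± 5.35) and Pfkl (28.8 ± 7.70) formed a lower set, and Hk2 (19.3 ± 5.95) and Gpi1 (19.0 ± 3.11) the lowest among the enzymes. Aldoa stood above Pkm by more than either SD. Below it, neighbours in this order differed by less than the larger of their SDs, except for the steps from Tpi1 down to Pgk1 and from Pfkl down to Hk2. Exon length is an assumption of this scale: the gene lengths behind the authors' RPKM values equal the whole annotated span, introns included, for 8 of the 10 members. Per kb of that span the TRAP means are 134 for Aldoa, 72.6 for Tpi1, 25.2 for Pkm and 23.1 for Ldha, so that Tpi1 then ranks above Pkm, and Hk2 is at 2.33 and Gpi1 at 4.22. Several members have processed pseudogene copies, which makes their counts and their place in either order uncertain. Gapdh, a glycolytic gene with such copies, was at 7.04 ± 1.59 CPM per kb of exon in TRAP. The part of such copies in these levels was not tested.

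Hif1a was close to the lower limit of measurement. The gene (ENSMUSG00000021109) lies at chr12:73901375-73947530 on the plus strand, and all of its exon bases fall within the span of Gm15283, an annotated gene on the opposite strand. Without knowing whether counting used strand, reads of the pair cannot be told apart. Gm49321, a protein-coding gene on the same strand (chr12:73937653-73968375), also overlaps the 3' part of Hif1a and is absent from the count table. Whether Gm49321 was part of the annotation used for counting is not known. Of 822 protein-coding genes that lie wholly inside a gene of the opposite strand, 56 (6.8%) were present in the count table, compared with 79.1% of the 20664 protein-coding genes inside no other gene. The 5 TRAP libraries held 4 to 11 reads of Hif1a each, or 0.228 ± 0.126 CPM per kb of exon, and its low level is a property of these counts that cannot be taken as its level of translation.

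In CPM, Hif1a was 2.63, 1.10, 0.937, 1.28 and 0.769 in TRAP 1 to 5, and 6.34, 4.93, 2.07 and 2.80 in 5xFAD TRAP 1 to 4. In Eif2A it was 1.44, 1.93, 1.46 and 1.91, and in 5xFAD Eif2A 4.74, 4.21 and 3.66. The plain tag groups overlapped through TRAP 1 and 5xFAD TRAP 3, and all 3 5xFAD Eif2A libraries stood above all 4 Eif2A libraries. Neither difference passed the test: the log2 fold change was 1.58 ± 0.71 (SE, adjusted p = 0.433) on the plain tag and 1.22 ± 0.77 (adjusted p = 0.505) on Eif2A. Here and below, tests are edgeR's quasi-likelihood F-test with group, labelled batch and labelled sex over all 29 libraries, Benjamini-Hochberg adjusted over 16074 genes and called below 0.05.

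Hk2, the inducible hexokinase that phosphorylates glucose at the entry of the pathway (chr6:82725025-82774454, minus strand), passed no test of 5xFAD. It was at 101, 122, 128, 160 and 63.8 CPM in TRAP, at 116, 118, 92.2 and 117 in 5xFAD TRAP, at 117, 81.4, 105 and 97.0 in Eif2A, and at 119, 122 and 96.1 in 5xFAD Eif2A. The 4 groups overlapped throughout, with the highest and the lowest of the 16 values both in TRAP. The log2 fold change with 5xFAD was 0.18 ± 0.34 on the plain tag and 0.19 ± 0.36 on Eif2A (adjusted p = 0.914 and 0.892).

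In the first steps after Hk2, Gpi1 (glucose 6-phosphate isomerase), Pfkl (the liver-type subunit of phosphofructokinase, a main control point of the pathway) and Aldoa (the aldolase that splits the hexose) had higher means in both 5xFAD groups without passing the test. Gpi1 (chr7:34201330-34230336) was at 107, 129, 155, 113 and 109 CPM in TRAP and at 215, 236, 169 and 131 in 5xFAD TRAP. Pfkl (chr10:77986947-78010083) was at 163, 172, 282, 186 and 158 against 308, 271, 206 and 196. Both pairs of groups overlapped, Gpi1 only through 5xFAD TRAP 4 and Pfkl through TRAP 3. Aldoa (chr7:126795234-126800751) was at 594, 665, 987, 730 and 714 CPM in TRAP and at 1587, 1520, 1291 and 1056 in 5xFAD TRAP, which did not overlap. All 3 genes lie on the minus strand, and 39.7% of the exon bases of Aldoa fall within the opposite-strand gene Fam57b. Their log2 fold changes on the plain tag were 1.00 ± 0.36, 0.74 ± 0.29 and 1.22 ± 0.36, with adjusted p of 0.267, 0.345 and 0.134.

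Tpi1, triosephosphate isomerase (chr6:124810586-124814296, minus strand), was one of 2 members that rose with 5xFAD on the plain tag. It was at 226, 241, 366, 248 and 266 CPM in TRAP and at 561, 562, 495 and 458 in 5xFAD TRAP. Every 5xFAD TRAP library lay above every TRAP library, of which TRAP 3 was the highest. The means were 270 ± 56.0 and 519 ± 51.5 CPM (SD), and the log2 fold change was 1.19 ± 0.23 (adjusted p = 0.00696). The log2 ratio of the 2 means, with no adjustment for batch or sex, was 0.94.

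Ldha, the lactate dehydrogenase subunit that favours lactate formation (chr7:46841475-46855627, plus strand), was the other. It was at 283, 337, 409, 332 and 273 CPM in TRAP and at 675, 705, 509 and 496 in 5xFAD TRAP, again without overlap. In both genes the pair of 5xFAD TRAP libraries from labelled batch 1 (1 and 2) stood above the pair from batch 2 (3 and 4). The log2 fold change of Ldha was 1.19 ± 0.26 (adjusted p = 0.0171), and the log2 ratio of means was 0.87.

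Pgk1 (phosphoglycerate kinase, an ATP-forming step, chrX:106187100-106203699), Pgam1 (phosphoglycerate mutase, chr19:41911923-41918660) and Pkm (pyruvate kinase, the other ATP-forming step, chr9:59656368-59679375), all on the plus strand, act in the later steps. On the plain tag, Pgk1 was at 56.6, 62.3, 96.4, 73.7 and 74.0 CPM against 133, 141, 123 and 105 with 5xFAD. Pgam1 was at 47.9, 52.4, 70.5, 50.8 and 68.5 against 83.4, 93.7, 86.0 and 83.8, and Pkm at 420, 632, 709, 589 and 544 against 1297, 1281, 934 and 848. In none of the 3 did the groups overlap, yet none passed the test, with log2 fold changes of 1.06 ± 0.32, 0.79 ± 0.26 and 1.36 ± 0.40 and adjusted p of 0.150, 0.218 and 0.134.

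In all, 2 of the 10 members (Tpi1 and Ldha) rose on the plain tag, where 0.709% of all tested genes rose. In 6 of the 10 (Aldoa, Tpi1, Pgk1, Pgam1, Pkm and Ldha) every 5xFAD TRAP library stood above every TRAP library, as in 3.4% of all genes. The median log2 fold change was 1.12 over the members and -0.06 over all tested genes. The count of 2 rested on single libraries: it was 0 without TRAP 1, and 1 without 5xFAD TRAP 2 or without 5xFAD TRAP 4. It was also 0 when labelled sex was replaced by sex from Y-linked reads, when sex was left out, and when batch was left out. With sex from Y-linked reads, 0.535% of all tested genes rose.

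**Figure D1:**
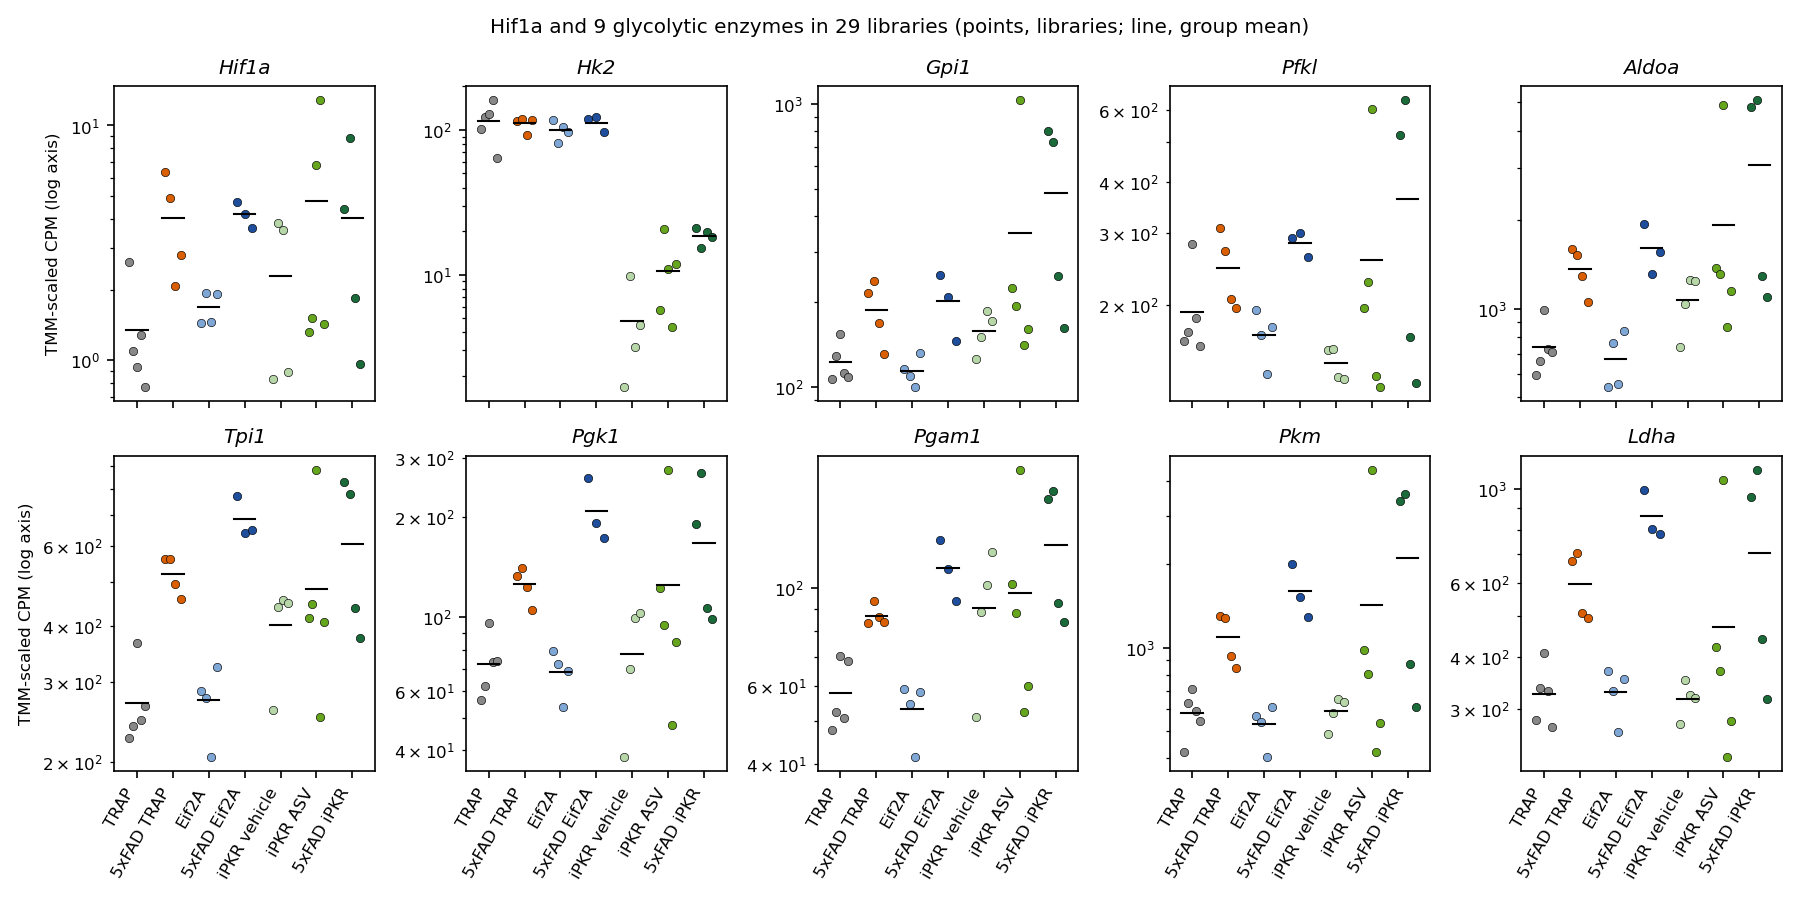
TMM-scaled CPM (log axis) of the 10 members in each of the 29 libraries, 1 panel per gene, with groups along the x axis and points for libraries. Tpi1 runs from 226 to 366 CPM in TRAP and from 458 to 562 in 5xFAD TRAP, and Hk2 lies at 63.8 CPM or above in the 16 libraries without the iPKR construct and at 20.9 or below in the 13 with it.

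On the Eif2A background, without VEGF or ASV, 5 members rose with 5xFAD: Tpi1, Pgk1, Pgam1, Pkm and Ldha. Tpi1 was at 287, 277, 205 and 325 CPM in Eif2A and at 771, 641 and 650 in 5xFAD Eif2A, a log2 fold change of 1.41 ± 0.26 (adjusted p = 0.00139). Pgk1 was at 79.0, 72.5, 53.8 and 69.1 against 261, 191 and 173, a log2 fold change of 1.66 ± 0.35 (adjusted p = 0.00579). In both genes the lowest 5xFAD Eif2A library lay far above the highest Eif2A library, with 641 against 325 CPM in Tpi1 and 173 against 79.0 in Pgk1.

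Ldha was at 370, 331, 266 and 355 CPM in Eif2A and at 998, 804 and 784 in 5xFAD Eif2A, a log2 fold change of 1.45 ± 0.28 (adjusted p = 0.00291). Pkm was at 568, 538, 403 and 612 against 2014, 1521 and 1291, a log2 fold change of 1.69 ± 0.44 (adjusted p = 0.0275). Pgam1 was at 59.1, 54.6, 41.5 and 58.2 against 128, 111 and 93.8, a log2 fold change of 1.13 ± 0.29 (adjusted p = 0.0250). In Pkm, Pgk1 and Pgam1, 5xFAD Eif2A 1 was the highest and 5xFAD Eif2A 3 the lowest of the 3 libraries with 5xFAD, and none reached down to the Eif2A range.

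Aldoa was at 1932, 1312 and 1548 CPM in 5xFAD Eif2A, all above the 4 Eif2A libraries, whose highest was 841, and its test fell short of the threshold (log2 fold change 1.29 ± 0.39, adjusted p = 0.0695). Gpi1 (0.89 ± 0.39) and Pfkl (0.83 ± 0.32) were also higher in every 5xFAD Eif2A library and were not called (adjusted p = 0.268 and 0.178). The 5 called members stood beside 2.08% of all tested genes that rose, and the 9 members without overlap (all but Hk2) beside 11.5% of genes. The median log2 fold change was 1.26 over the members and -0.06 over all genes. Leaving out Eif2A 2 kept all 5 calls. Leaving out Eif2A 1, 3 or 4 or 5xFAD Eif2A 1, 2 or 3 gave 3 calls each time (Tpi1, Pgk1 and Ldha), with Pgam1 and Pkm above the threshold.

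A fit to the 16 libraries without the iPKR construct tested 13800 genes and gave smaller errors. There 9 members, all but Hk2, rose on the plain tag (4.1% of all genes tested in that fit) and 8, all but Hk2 and Hif1a, on Eif2A (8.7%). On the plain tag, the log2 fold changes of the 8 enzymes other than Hk2 ran from 0.57 ± 0.13 (Pfkl, adjusted p = 0.00925) to 1.10 ± 0.11 (Tpi1, adjusted p = 4.54e-06), and that of Hif1a was 1.82 ± 0.53 (adjusted p = 0.0470). On Eif2A, Pgk1 had the largest change among the enzymes, 1.65 (adjusted p = 1.79e-07), and Hif1a was not called at 1.28 (adjusted p = 0.122). The batch coefficient of the 9 enzymes (batch 2 minus batch 1, log2) was negative for all 9 in either fit. Its median was -0.88 over 29 libraries and -0.51 over the 16, values drawn up after seeing the data. Without the 3 libraries with the highest neuron shares, all of labelled batch 1, the median was -0.38 over 26 libraries, again negative for all 9. The size of this coefficient thus depended on those 3 libraries, and the part of their neuron content in it was not tested. Hk2 was not called in the fit to 29 libraries or in the fit to 16.

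**Figure D2:**
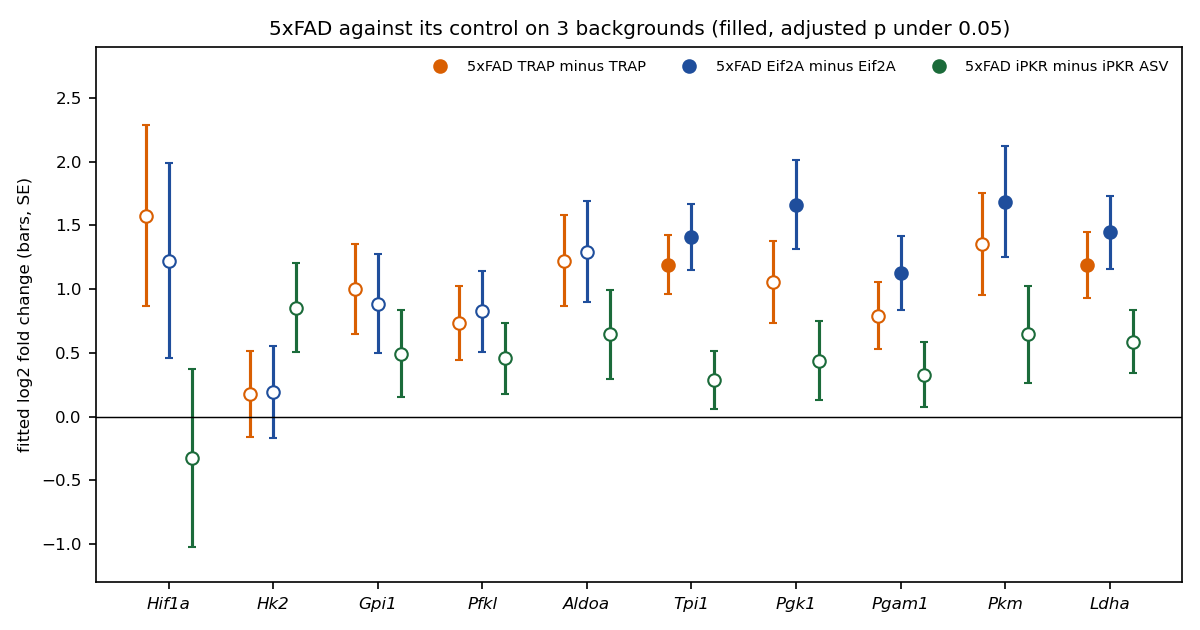
Log2 fold change of each member with 5xFAD in 3 backgrounds (plain tag, Eif2A, iPKR with ASV), from the fit to 29 libraries, with bars for the SE and filled points for members called at adjusted p below 0.05. Tpi1 and Ldha are called on the plain tag, Tpi1, Pgk1, Pgam1, Pkm and Ldha on Eif2A, and none on iPKR.

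The 5xFAD effect on Eif2A was not shown to differ from that on the plain tag. The difference of the effects (Eif2A minus plain tag) ran from -0.11 (Gpi1) to 0.60 (Pgk1) over the 9 enzymes on the log2 scale and was -0.35 ± 1.04 for Hif1a, and none was called (0.00622% of all genes were). In the fit to 16 libraries the difference for Pgk1 was 0.71 ± 0.18 (unadjusted p = 0.00127, adjusted p = 0.170). Between Eif2A and TRAP without 5xFAD no member was called. Over 29 libraries edgeR called 0 of 16074 genes (0%), with 912 at an unadjusted p below 0.05, none of them a member. The fit to 16 libraries called 272 of 13800 genes (1.97%) and again no member. There Pfkl (-0.35), Gpi1 (-0.28) and Pkm (-0.30) had unadjusted p of 0.00860, 0.0279 and 0.0302, with adjusted p of 0.162, 0.286 and 0.298. DESeq2 over all 29 libraries called 41 of 16074 genes (0.255%) and no member. In the edgeR fit to 29 libraries the enzymes differed by -0.46 to -0.13 and Hif1a by 0.45.

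Between 5xFAD Eif2A and 5xFAD TRAP, which differ in VEGF and ASV as well as genotype, no member was called and 0.168% of genes were. The enzymes differed by -0.48 (Gpi1) to 0.36 (Pgk1) in the fit, and their log2 ratios of means, with no adjustment for batch or sex, ran from 0.02 (Hk2) to 0.73 (Pgk1). In 4 members (Tpi1, Pgk1, Pgam1 and Ldha) every 5xFAD Eif2A library stood above every 5xFAD TRAP library, as in 7.97% of genes. All 3 5xFAD Eif2A libraries are of batch 1, as are 5xFAD TRAP 1 and 2.

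The isoenzymes of a step often differ by cell type, so the share of a family's reads that fell to the member was taken in each library, a measure chosen after seeing the data and not scaled by length. Ldha took 23.9, 21.9, 21.2, 22.7 and 18.3% of the Ldha and Ldhb reads in TRAP and 40.3, 39.2, 28.8 and 29.7% in 5xFAD TRAP. In Eif2A it took 18.9, 21.0, 19.0 and 19.3%, and in 5xFAD Eif2A 39.6, 39.6 and 37.4%. The share was higher in every 5xFAD library on both backgrounds, while Ldhb, the subunit that favours lactate use, had a log2 fold change of 0.16 (adjusted p = 0.912) on the plain tag and 0.07 (adjusted p = 0.973) on Eif2A. By an exact two-sided permutation test, the plain tag difference of 12.9 percentage points gave p = 0.0159, the smallest that 4 against 5 allows. On Eif2A the difference was 19.3 points, with an exact p of 0.0571, the smallest that 3 against 4 allows. Of 40 such tests none passed after Benjamini-Hochberg adjustment (lowest adjusted p = 0.0907). On the iPKR background the Ldha share was 38.0 ± 3.77% in iPKR ASV and 36.6 ± 2.34% in 5xFAD iPKR, and the groups overlapped.

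The other families did not follow one pattern. Hk2 held 42.3 ± 5.88% of hexokinase reads (Hk1, Hk2, Hk3) in TRAP, 40.2 ± 2.08% in 5xFAD TRAP, 40.1 ± 2.14% in Eif2A and 43.9 ± 1.65% in 5xFAD Eif2A. Pfkl held 76.9 ± 1.72% of phosphofructokinase reads in Eif2A and 85.4 ± 4.02% in 5xFAD Eif2A, compared with 70.8% in both TRAP and 5xFAD TRAP. Aldoa held 86.3 ± 2.39% of aldolase reads in Eif2A and 93.3 ± 1.70% in 5xFAD Eif2A, and Eno1 79.9 ± 2.83% and 90.4 ± 0.933% of enolase reads. In TRAP and 5xFAD TRAP, Aldoa held 86.7 ± 1.32% and 89.0 ± 2.62%, and Eno1 78.7 ± 2.34% and 80.5 ± 5.47%, with overlap in both. In these 3 families the Eif2A groups did not overlap, and 3 against 4 libraries cannot give an exact p below 0.0571.

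**Figure D3:**
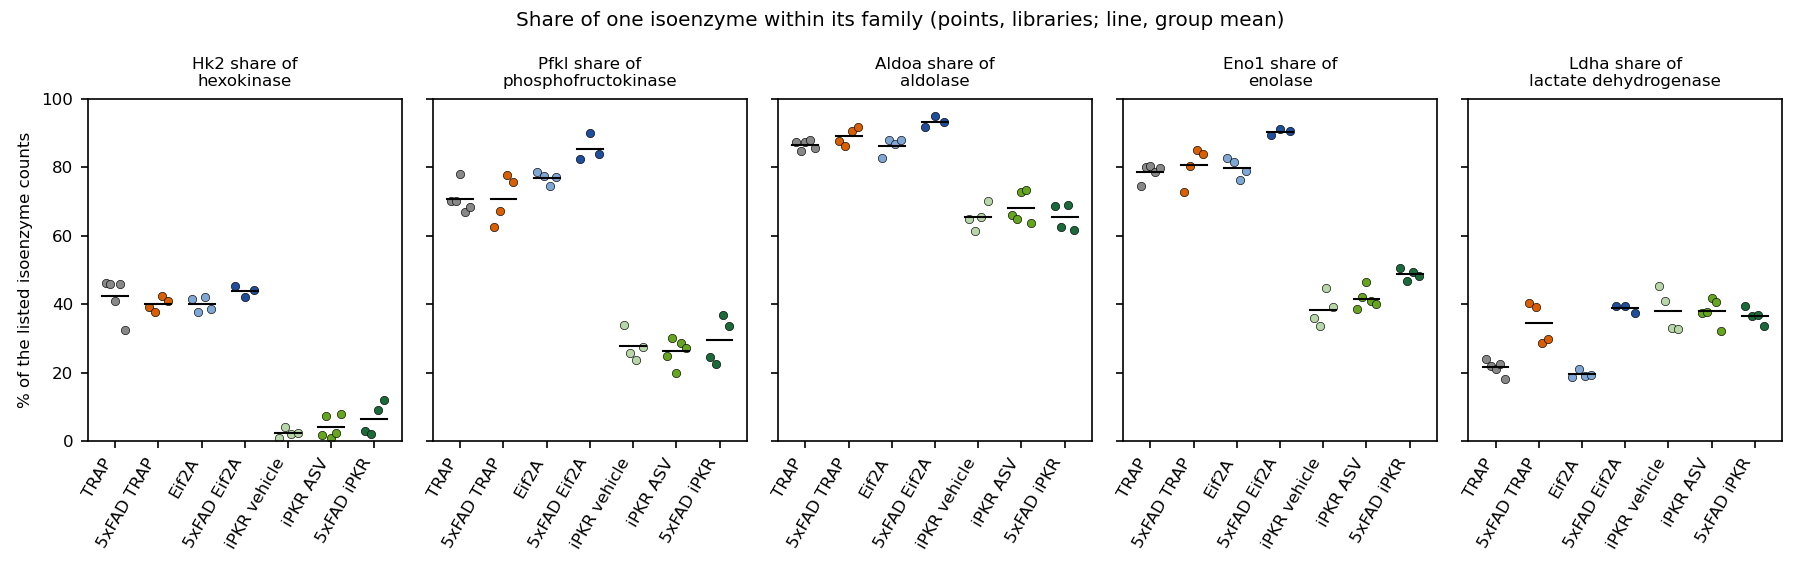
Share of a family's reads (percent) that fell to Hk2, Pfkl, Aldoa, Eno1 or Ldha in each library, by group, with a line at each group mean. The Ldha share lies between 18.3 and 23.9% in the TRAP and Eif2A groups and between 28.8 and 40.3% in the 5xFAD groups on the same tag.

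Among the other genes of the pathway, in lists taken over from earlier work on these libraries, few were called on the plain tag. None of 16 tested isoenzymes and other glycolytic steps passed there, with Eno1 (enolase) at a log2 fold change of 1.07 (adjusted p = 0.266) and Gapdh at 1.04 (adjusted p = 0.183). On Eif2A, Gapdh rose from 19.7 ± 6.42 to 57.7 ± 19.7 CPM (log2 fold change 1.65 ± 0.36, adjusted p = 0.00843), the only one of the 16 to pass, and Eno1 was at 1.16 (adjusted p = 0.143). Both genes, like several of the members, have processed pseudogene copies, so that their counts are uncertain.

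Of 9 tested glucose and lactate carriers, 4 rose on Eif2A and none on the plain tag, beside 2.08% and 0.709% of all tested genes. None of the 9 was called for the difference between the effects on the 2 backgrounds. Their median log2 fold change was 0.80 on Eif2A (-0.31 to 3.26) and 0.61 on the plain tag (-0.32 to 1.76). Slc16a3, which exports lactate (MCT4), was at 19.8, 25.1, 22.6 and 27.0 CPM in Eif2A and at 95.7, 94.2 and 106 in 5xFAD Eif2A, a log2 fold change of 2.06 ± 0.40 (adjusted p = 0.00234). On the plain tag it was at 20.7, 16.8, 36.3, 22.4 and 23.8 CPM against 70.1, 91.0, 57.2 and 57.7, also without overlap (log2 fold change 1.45 ± 0.36, adjusted p = 0.0512). The others called on Eif2A were Slc2a6 (a hexose carrier of lysosomes, log2 fold change 3.26), Bsg (the chaperone of lactate carriers, 1.10) and Slc2a1 (the glucose carrier GLUT1, 1.69), with adjusted p of 0.000196, 0.00109 and 0.0442. Slc2a6 went from 3.93 ± 2.21 to 37.9 ± 2.75 CPM, and 61.3% of the exon bases of Slc2a1 lie within other annotated genes.

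Of 10 tested partners and regulators of Hif1a, Egln3, an oxygen-sensing prolyl hydroxylase that marks HIF alpha subunits for degradation and is itself a HIF target, rose on both backgrounds. It went from 3.65 ± 1.47 to 45.6 ± 7.39 CPM on the plain tag (log2 fold change 3.60 ± 0.61, adjusted p = 0.00126) and from 3.38 ± 1.17 to 36.9 ± 17.2 on Eif2A (3.41 ± 0.67, adjusted p = 0.00303). Hif3a, a related alpha subunit, fell on the plain tag from 9.10 ± 5.37 to 0.207 ± 0.144 CPM (adjusted p = 0.00668). Among 15 tested HIF targets outside glycolysis none was called on the plain tag. On Eif2A, P4ha1 (a collagen prolyl hydroxylase) rose by 0.76 (adjusted p = 0.0354) and Vegfa, a vascular growth factor, fell by 1.63 (adjusted p = 0.0244). On Eif2A, 1 gene of this list was thus called in each direction, beside 2.08% of all tested genes called higher and 1.03% called lower. The median log2 fold change of the list was 0.28 there and 0.02 on the plain tag. Egln3, also a HIF target, was counted in another list. Tigar, a phosphatase that lowers glycolytic flux, was the one of 6 tested regulators called on the plain tag, at 1.51 (adjusted p = 0.0159). No gene was called in either background among 12 genes of pyruvate use, 9 of the pentose phosphate pathway and 17 of the citric acid cycle.

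Markers moved with these groups too. Genes of disease-associated microglia (14 measured) made up 0.655 to 1.02% of counts in TRAP, 1.84 to 2.37% in 5xFAD TRAP, 0.789 to 0.960% in Eif2A and 2.96 to 3.38% in 5xFAD Eif2A. The 9 enzymes together made up 0.195 to 0.283% in TRAP, 0.305 to 0.460% in 5xFAD TRAP, 0.167 to 0.227% in Eif2A and 0.397 to 0.525% in 5xFAD Eif2A. Both sums stood above their control ranges in every 5xFAD library, with 12 of the 14 markers called on the plain tag and 13 of 14 on Eif2A, and the part of these markers in the enzyme result was not tested. The neuron share was 0.120 to 0.166% in TRAP and 0.439, 0.253, 0.122 and 0.140% in 5xFAD TRAP 1 to 4. In 5xFAD Eif2A it was 0.078 to 0.113%, against 0.112 to 0.144% in Eif2A. The part of the neuron share in the enzyme results was not tested. No marker of neurons, astrocytes, oligodendrocytes, border macrophages, neutrophils and monocytes or erythroid cells was called on either background. Of 10 endothelial markers Flt1 alone was, at a log2 fold change of 2.91 on the plain tag and 2.64 on Eif2A (adjusted p = 0.0222 and 0.0256), a gene named after its values were seen.

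**Figure D4:**
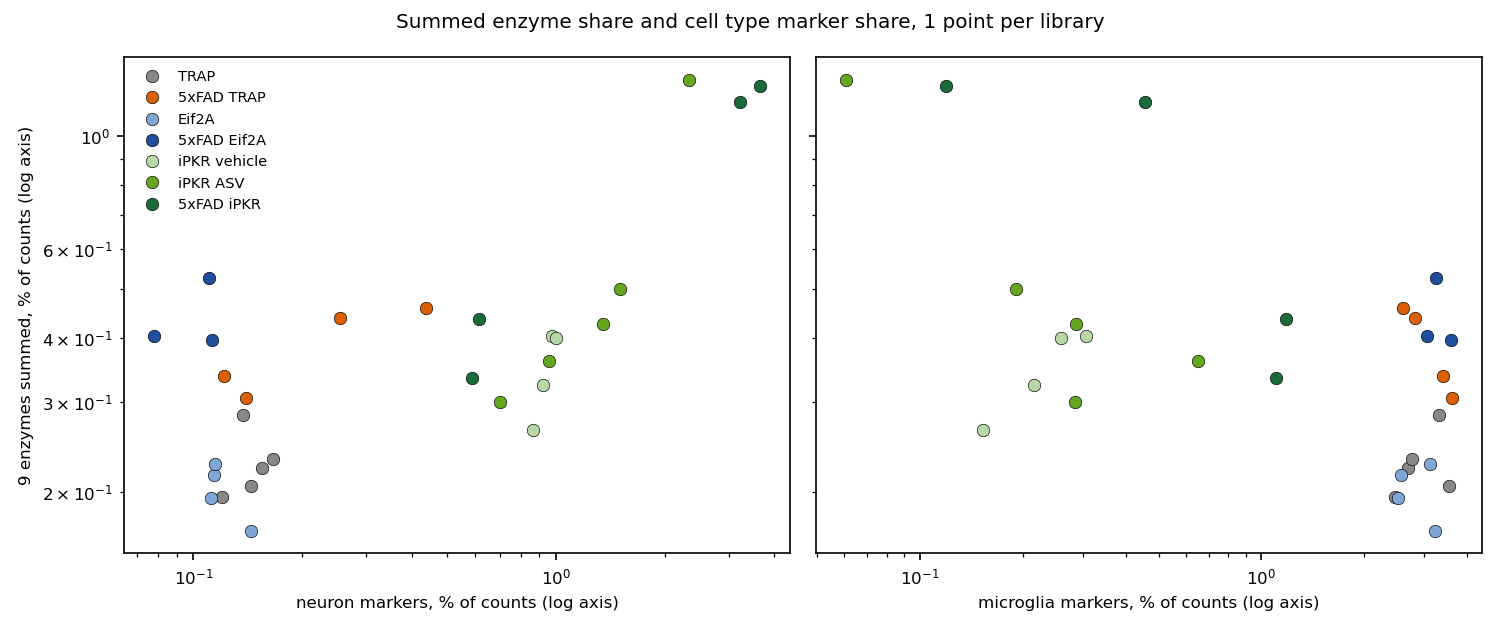
Summed share of counts of the 9 enzymes (percent, y axis) against that of the neuron markers (left panel, percent, x axis) and of the microglia markers (right panel) in each of the 29 libraries, coloured by group, with all axes logarithmic. The 3 5xFAD Eif2A libraries hold 0.397 to 0.525% enzyme reads at neuron shares of 0.078 to 0.113%, and iPKR ASV 3 and 5xFAD iPKR 1 and 2 stand apart with both shares high.

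On the iPKR background no member was called with 5xFAD, where 1.72% of all genes were. Gpi1 was at 223, 193, 1026, 141 and 161 CPM in iPKR ASV 1 to 5 and at 798, 732, 246 and 161 in 5xFAD iPKR 1 to 4. Pkm was at 978, 803, 4385, 420 and 534 against 3386, 3589, 875 and 610. Ldha was at 422, 370, 1050, 231 and 282 against 961, 1110, 441 and 318. In each gene iPKR ASV 3 and 5xFAD iPKR 1 and 2 were the highest libraries, the same 3 with the highest neuron shares, and the groups overlapped.

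The fitted log2 fold changes were 0.50 for Gpi1, 0.65 for Pkm and 0.59 ± 0.25 for Ldha (unadjusted p = 0.0257, adjusted p = 0.281), and the 9 enzymes ran from 0.29 (Tpi1) to 0.86 (Hk2). Without iPKR ASV 3, 3 members were called, among 542 of 16073 genes: Gpi1 at 1.17 ± 0.30 (adjusted p = 0.0278), Pkm at 1.38 ± 0.33 (adjusted p = 0.0215) and Ldha at 0.96 ± 0.23 (adjusted p = 0.0198). Without all 3 neuron-rich libraries none was called and Pkm was at 0.20, Gpi1 at 0.20 and Ldha at 0.32. Hif1a had a log2 fold change of -0.33 ± 0.70 and ran from 1.31 to 12.8 CPM in iPKR ASV and from 0.968 to 8.88 in 5xFAD iPKR.

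Slc16a3 was called on this background as well, at 7.89, 1.51, 1.47, 4.94 and 4.78 CPM in iPKR ASV and at 15.3, 7.69, 22.7 and 16.8 in 5xFAD iPKR (log2 fold change 2.00 ± 0.40, adjusted p = 0.00607). Only 5xFAD iPKR 2 reached down into the iPKR ASV range, and it is one of the neuron-rich libraries. P4ha1 rose too (0.75, adjusted p = 0.0331). Microglia markers moved in the same comparison: 3 of 12 were called higher (median log2 fold change 1.23, all 12 above 0), and 12 of 14 markers of disease-associated microglia were (median 2.57). Their summed shares ran from 0.061 to 0.650% in iPKR ASV and from 0.119 to 1.18% in 5xFAD iPKR for the first list, and from 0.060 to 0.269% and 0.208 to 1.00% for the second. Their part in these results was not tested. The difference between the 5xFAD effects on iPKR and on the plain tag ran from -0.91 (Tpi1, unadjusted p = 0.0104) to 0.68 over the 9 enzymes and was -1.90 ± 1.02 for Hif1a, and none was called (0.0373% of all genes were).

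ASV against vehicle on iPKR called no member, with 0.423% of genes called. Hk2 came nearest, at 1.67, 9.78, 3.15 and 4.46 CPM with vehicle and 5.70, 20.6, 10.9, 4.38 and 11.9 with ASV (log2 fold change 0.99 ± 0.36, unadjusted p = 0.00944, adjusted p = 0.174), and DESeq2, which called 3.27% of genes, called it (adjusted p = 0.0452). The groups overlapped, and the smallest count behind these values was 6. In batch 1 alone Pgk1 was called (1.33 ± 0.34, adjusted p = 0.0473), where in batch 2 alone it was at -0.71 ± 0.30 (adjusted p = 0.350).

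The clearest contrast in any member was that of Hk2 between constructs. Between iPKR vehicle and TRAP, the construct and the treatment with VEGF and solvent cannot be told apart, since TRAP received tamoxifen alone. Both 5xFAD groups compared here received VEGF and ASV. It was at 115 ± 35.5 CPM in TRAP and at 4.77 ± 3.53 in iPKR vehicle, a log2 fold change of -4.29 ± 0.39 (adjusted p = 1.57e-09), and at 111 ± 12.5 in 5xFAD TRAP and 18.6 ± 2.38 in 5xFAD iPKR, a log2 fold change of -2.62 ± 0.38 (adjusted p = 3.70e-06). Hk2 was the one member lower, beside 25.4% of all tested genes in the first comparison and 23% in the second. The microglia markers fell over the same libraries, to 0.061 to 1.18% of counts, and their part in the Hk2 difference was not tested. Hk2 held 2.38 ± 1.35% of hexokinase reads in iPKR vehicle and 6.52 ± 4.76% in 5xFAD iPKR, with Hk1, the main hexokinase of neurons, at 181 ± 33.1 CPM in iPKR vehicle against 71.6 ± 20.2 in TRAP.

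In iPKR vehicle against TRAP, 4 other members were higher, where 28.6% of all genes were: Tpi1 (log2 fold change 0.86, adjusted p = 0.00312), Pgam1 (0.88, adjusted p = 0.00671), Aldoa (0.98, adjusted p = 0.0254) and Gpi1 (0.91, adjusted p = 0.0368). All 4 overlapped between the groups, and their log2 ratios of means, with no adjustment for batch or sex, were 0.57, 0.64, 0.53 and 0.37 in the same order. With Hk2 these make 5 called members. No member stood higher in every iPKR vehicle library, where 24.8% of all genes did, and 2 stood lower in every one, Hk2 and the uncalled Pfkl (fitted 0.01, log2 ratio of means -0.42), where 23.8% did. Without iPKR vehicle 3 the count was 2, and without TRAP 1 or iPKR vehicle 4 it was 3. With 5xFAD on both constructs, Gpi1 (0.92 ± 0.38, adjusted p = 0.0481) was the one member higher, beside 25% of genes, with overlapping groups and a log2 ratio of means of 1.37, and Hk2 the one lower. The replicate block, which pairs libraries of like number and batch here, left Hk2 alone (Gpi1 adjusted p = 0.0684), as did leaving out any 5xFAD TRAP library or 5xFAD iPKR 1 or 2. The 5 of 10 members called in the first comparison stand beside 54.1% of all genes called in either direction, and the 2 of 10 in the second beside 47.9%.

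Of the 16 other glycolytic genes tested, 7 were higher and 3 lower in iPKR vehicle than in TRAP, beside 28.6% and 25.4% of all genes. Among them were Eno2, the neuronal enolase (log2 fold change 2.81), Pfkm (2.85), Aldoc, the astrocytic aldolase (2.77) and, lower, Hk3, a hexokinase of myeloid cells (-3.49). Ldha was at 276, 353, 324 and 319 CPM in iPKR vehicle, within the TRAP range, yet its share of lactate dehydrogenase reads was 38.1 ± 6.13% against 21.6 ± 2.13%, with Ldhb at 537 ± 152 CPM against 1195 ± 222. Pfkl held 27.8 ± 4.46% of phosphofructokinase reads against 70.8 ± 4.31%.

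Across libraries, the 8 enzymes other than Hk2 moved closely together. Over the 16 libraries without the iPKR construct, the 28 pairs had a median Pearson r of 0.927 (0.834 to 0.985) on log2 CPM, and over the 13 others 0.935 (0.790 to 0.993). Hk2 correlated with the same 8 at a median of 0.213 (0.067 to 0.388) over the 16 libraries and 0.480 over the 13. These are descriptions: the libraries share depth, batch and group differences, which enter every pair. The genes outside the members most like the mean of the 9 enzymes, among 7868 genes of sufficient level, were Eno1 (r = 0.956), Anxa5, Gaa, Capg and Amdhd2 over the 16 libraries. Over the 13 they were Actg1 (r = 0.983), Ruvbl1, Eno1, Stip1 and Atp5a1. Most like Hif1a were Sh3bgrl (r = 0.920), Rap2b, Gtf3c4, Insig1 and Dgkd over the 16, and Thoc1 (r = 0.897), Vps33b, Ambra1, Bre and Atl2 over the 13, from low counts of Hif1a.

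**Figure D5:**
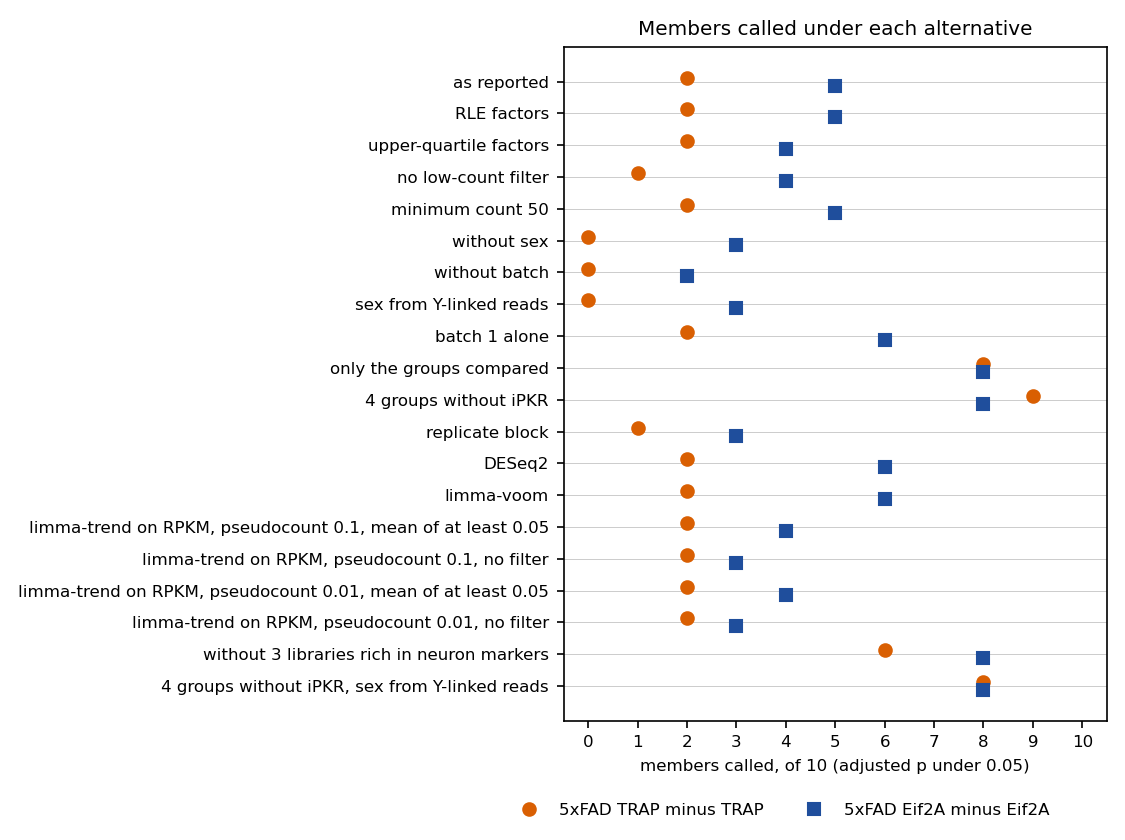
Number of the 10 members called with 5xFAD (x axis) as reported and under each alternative setting (y axis), on the plain tag and on Eif2A. The plain tag count runs from 0 to 9 and the Eif2A count from 2 to 8, with the 9 from the fit to the 4 groups without iPKR. On the plain tag that fit called 6.94% of all genes tested, compared with 0.79% in the fit as reported.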

How the data were processed

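The authors deposited a table of read counts per gene for the 29 libraries and a table of RPKM values (reads scaled by gene length and library size). The submitters' processing notes name featureCounts (2.0.3), HISAT2 (2.2.1), Trim Galore and the mm10 build. The annotation and strand setting are not given in the sources used here. The deposited counts were tested and the RPKM served as an alternative.

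Counts were fitted with edgeR 4.0.16 (R 4.3.3; TMM, filterByExpr with a minimum count of 10 and total of 15, robust quasi-likelihood F-test) on 7 groups, labelled batch and labelled sex, with 20 residual degrees of freedom. Alternatives used DESeq2 1.42.0 and limma 3.58.1. Isoenzyme shares were compared by exact permutation tests (scipy 1.17.1). Symbols were matched to GENCODE vM21 for 21439 of 22327 genes. Reads carry no molecular identifiers, so depth covers counting error only.

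No pair of libraries of the same group looked like copies (lowest chi-square per degree of freedom 4.22 over 47 pairs). Pairs across groups were not compared. Same-numbered libraries deviated together (r 0.113 to 0.216 in each of 4 pairs) between 5xFAD TRAP and 5xFAD iPKR alone, where like numbers share a labelled batch.

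The members and lists were chosen with earlier results of these data known. Named genes were all members, set isoenzymes, carriers and Vegfa, up to 4 called genes per list by smallest p, and the 5 genes most like the members. On simulated counts the fit recovered 38% of genes changed 2-fold and 92% changed 4-fold on the plain tag (15222 genes), and 18% and 100% on Eif2A (15264 genes). False calls numbered 6 and 3. Apart from the planted changes, each simulated gene had the same mean level in every library, without construct, batch or sex differences. Changes were planted only in genes above a minimum level that Hif1a does not reach. These rates therefore do not give the power of the fit for the members. Some members of the lists are not analysed here.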

Additional observations from a re-analysis of the deposited data

Results flagged for a closer look

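Of 60 groups of member values tested for a sample apart from the others (Dixon's rule, which marks about 1 group in 20 by chance), 10 had one. Library iPKR ASV 3 was the high one in 5 genes, at 1026 CPM for Gpi1, 601 for Pfkl, 4891 for Aldoa, 4385 for Pkm and 1050 for Ldha, and it also held the highest neuron marker share of its group (2.33% of counts). TRAP 3 was high for Pfkl (282 CPM) and Tpi1 (366 CPM). TRAP 1 was high for Hif1a, at 2.63 CPM. The low ones were 5xFAD TRAP 3 for Hk2 (92.2 CPM) and iPKR vehicle 1 for Tpi1 (260 CPM).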

How the results depend on the processing

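Counts of called members moved with the design more than with scaling or tool. The share of all tested genes called in either direction moved too, so the counts do not describe the members alone. On the plain tag this share was 0.79% as reported, 0.572% with Y-linked sex and 6.94% with the 4 groups without iPKR. On Eif2A it was 3.1%, 2.72% and 15.1% in the same order. For iPKR vehicle against TRAP it was 54.1% as reported and 54.2% with Y-linked sex. Shares under the other settings are not given here. On the plain tag, the 2 calls became 1 without the low-count filter and with the replicate block (Ldha adjusted p = 0.0727), 0 without sex, without batch or with sex from Y-linked reads, 6 without the 3 neuron-rich libraries, 8 with only the groups compared, 9 with the 4 groups without iPKR, and 8 with those 4 groups and Y-linked sex, an alternative chosen after seeing the data. On Eif2A, the 5 became 3 without sex, with Y-linked sex, with the replicate block (Pgam1 adjusted p = 0.0574, Pkm 0.0509) and on RPKM without a filter (pseudocounts 0.1 and 0.01), 2 without batch, and 8 with only the groups compared, with 4 groups (either sex term) and without the neuron-rich libraries. ASV against vehicle went from 0 to 1 in batch 1 alone and with DESeq2. For iPKR vehicle against TRAP, 5 became 3 without sex or with Y-linked sex, 2 without batch, 1 in batch 1 alone, and 4 with the block (Gpi1 adjusted p = 0.0877). For 5xFAD iPKR against 5xFAD TRAP, 2 became 1 without the low-count filter, in batch 2 alone, with only the groups compared, with the block and with limma-voom, and 4 in batch 1 alone. Leaving out 1 library gave 0 to 2 calls on the plain tag, 3 to 5 on Eif2A, 0 to 3 for 5xFAD on iPKR, 2 to 6 for iPKR vehicle, 1 to 3 for 5xFAD iPKR against 5xFAD TRAP, and 0 to 0 elsewhere. The block changed no other call. The causes were not tested.

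Tpi1 and Pgk1 on Eif2A were called in all 19 other settings and without each of 7 libraries, Ldha in 18 of 19 and all 7, and Hk2 between constructs in every setting run. Some fold changes, called in no case but 1, changed sign. On the plain tag, Hk2 was at -0.060 without batch and -0.13 in batch 1 alone. With 5xFAD on iPKR, Hif1a was at 1.13 in batch 1 alone and 0.0059 on RPKM with pseudocount 0.01 (either filter), and without the neuron-rich libraries Pfkl was at -0.043 and Aldoa at -0.039. Pgk1 was at -0.71 for ASV in batch 2 alone. For iPKR vehicle, Ldha was at -0.019 without batch and -0.054 in batch 1 alone, and Pgk1 at -0.33 in batch 1 alone and -0.017 with only the groups compared. For 5xFAD iPKR against 5xFAD TRAP, Ldha (-0.05 as reported) was at 0.070 with RLE factors and DESeq2, 0.078 with upper-quartile factors, 0.0043 with a minimum count of 50, 0.13 without sex, 0.20 without batch, 0.11 with Y-linked sex, 0.36 in batch 1 alone, 0.18 with only the groups compared and 0.23 on RPKM in all 4 forms. Pfkl, Aldoa and Pkm were there at -0.49, -0.14 and -0.39 in batch 2 alone and at -0.58 (adjusted p = 0.0258, the 1 call), -0.26 and -0.50 without the neuron-rich libraries. Leaving out 1 library, sign changes fell within -0.75 to 0.54 (Hif1a), -0.0035 to 0.86 (Pfkl) and -0.052 to 0.80 (Pgk1) for 5xFAD on iPKR, -0.42 to 0.18 (Ldha), -0.30 to 0.46 (Pfkl) and -0.16 to 0.75 (Pkm) for 5xFAD iPKR against 5xFAD TRAP, and -0.026 to 0.64 (Pgk1) for ASV. Over all members and settings, signs changed in 2 of 279 values on the plain tag, 0 of 259 on Eif2A and 10 of 269 on iPKR, and in 42 of 259 between 5xFAD Eif2A and 5xFAD TRAP. Elsewhere the counts were 24 of 269 for ASV, 18 of 258 for iPKR vehicle and 53 of 259 for 5xFAD iPKR against 5xFAD TRAP, 0 of 279 between Eif2A and TRAP, and 31 of 349 and 7 of 349 for the differences of the 5xFAD effects on Eif2A and on iPKR from that on the plain tag. Batch 2 alone holds too few libraries for the plain tag and none for Eif2A. Values of Hif1a rest on few reads, 4 to 11 per TRAP library, and the cause of its low count was not tested.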
